A study of Mus musculus with 14 samples.

Results

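The 33 genes described here encode enzymes and carriers of the tricarboxylic acid (TCA) cycle and of the pyruvate and glutamine metabolism that feeds it. They were taken by symbol from a list of members and matched by gene identifier to the deposited count tables, which hold 53700 genes. All 33 were found, and all 33 passed the filter on low counts in both tables. RNA was sequenced from neural stem and progenitor cells (NSPCs) of adult C57BL/6 mice, in 14 poly-A libraries that form 4 groups. The first table held quiescent cells treated with BMP4 (n = 4) and proliferating cells treated with FGF and EGF (n = 4). The second held cells kept in FGF and EGF after a GFP adeno-associated virus (GFP control, n = 3) or after a Cre-GFP adeno-associated virus (Yme1l KO, n = 3). The series design names the second contrast as wild-type against Yme1lKO, while every library label, those of the KO included, names a wild-type mouse, and no label gives the floxed allele or the promoter of Cre. The labels thus tie the KO to the Cre virus alone. No library was shared between the comparisons. The labels do not say whether replicates came from separate animals or cultures, so p-values speak only for the spread among these libraries, and that spread may be technical.

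Pyruvate made by glycolysis enters mitochondria through the pyruvate carrier and is turned into acetyl-CoA by the pyruvate dehydrogenase complex, whose activity is switched off by kinases and on by phosphatases. The cycle oxidises that acetyl-CoA, and it loses intermediates to synthesis of lipids, amino acids and nucleotides. Pyruvate carboxylase replaces the lost intermediates from pyruvate, while glutamate dehydrogenase and the transaminases let glutamine carbon in as 2-oxoglutarate. In brain, pyruvate carboxylase and glutamine synthetase are best known from astrocytes, the glial cells that share a lineage with adult neural stem cells. YME1L is a protease of the inner mitochondrial membrane that removes and processes mitochondrial proteins.

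The level of the deleted gene was read first. Yme1l1 (ENSMUSG00000026775, chromosome 2, 23046381 to 23089272, all gene positions being on GRCm39) stood at 135, 124 and 121 CPM (counts scaled by the TMM-adjusted library total) in the GFP control libraries and at 25.7, 25.6 and 22.9 CPM in the KO libraries. Each KO library thus lay far below each control (log2 fold change -2.36 ± 0.07 SE, edgeR adjusted p = 5.89e-11). In the first table, whose labels name no virus, Yme1l1 stood at 3.90, 3.09, 4.77 and 2.18 CPM in proliferating and 4.85, 11.1, 3.91 and 4.88 CPM in quiescent libraries, below the KO libraries of the second table. By length-normalised TPM it was at 1.303 ± 0.399 in proliferating cells, 12.03 ± 1.36 in the KO and 51.1 ± 3.22 in the GFP control (SD, n = 4, 3 and 3). The tables were quantified separately and the cause of this gap was not tested, so the check of the deletion holds only within the second table. Library totals ran from 6475099 to 10320736 estimated counts. Quiescent replicate 2 and KO replicate 3 stood apart from their own groups. In the quiescent table, low-GC genes lay higher than high-GC genes in quiescent replicate 2 by 0.52 on the log2 scale, against -0.04 to 0.09 in the other quiescent libraries. Calls that change without either library are given beside the gene. Of 11 neural stem and progenitor markers 10 passed the filter on low counts in each table (Prom1 did not), and their summed level was 4679 to 5786 CPM in the first table and 5020 to 6080 CPM in the second. Single markers differed more between the 2 groups in FGF and EGF than these sums. Mean Nes was 376.6 CPM in proliferating and 1806 CPM in GFP control cells, and mean Gfap 44.65 and 3.562 CPM. Fabp7, by contrast, was at 758.7 and 802.9 CPM, and the cause of these gaps was not tested. In quiescent cells 4 of the 10 tested stem and progenitor markers had risen and 5 had fallen, or 90% called against 65.4% of all genes. In the KO 6 had fallen, or 60% called against 51.6% of all genes. Among neuronal markers Stmn2 was at 0 CPM in all libraries, while Tubb3 stood at 5.49 to 16.4 CPM in the first table, where it was lower in quiescent cells, and at 13.8 to 17.1 CPM in the second. Of the other lists, the microglial genes Cx3cr1, Ptprc and C1qa and the vessel genes Cldn5 and Pdgfrb were at 0. In the first table microglial Tmem119 stood at 2.569 to 5.50 CPM in quiescent and 0 to 0.4218 CPM in proliferating libraries. The vessel gene Kdr was at 9.438 to 12.98 and 1.793 to 3.214 CPM in the same groups, and Acta2 at 1.465 to 3.07 and 5.624 to 7.838 CPM. Tmem119 and Kdr were called higher and Acta2 lower in quiescent cells. Another microglial gene, P2ry12, stood at 2.585 to 5.592 CPM in the second table and was not called in the KO (log2 fold change 0.52 ± 0.25 SE, edgeR adjusted p = 0.0923). The oligodendrocyte-lineage gene Cspg4 stood at 50.85 to 102 CPM and the ependymal gene Foxj1 at 15.1 to 67.5 CPM over all libraries, and the part of such cells in the results was not tested. In such bulk samples, fewer cells of a type and less RNA per cell cannot be told apart.

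Most of these enzymes, like most of all genes tested, were called different between quiescent and proliferating cells, mainly by modest amounts. Glutamate dehydrogenase (Glud1, 2.33-fold) and pyruvate carboxylase (Pcx, 2.09-fold) rose the most, and NADP-dependent mitochondrial isocitrate dehydrogenase (Idh2, 2.85-fold lower) fell the most. Genes called at an adjusted p under 0.05 made up 65.4% of the 12245 tested, with 29.9% higher and 35.5% lower in quiescent cells. Among the 33 members, 25 were called, 12 higher and 13 lower, a share of 75.8%. Only 5 members were called with a change of at least 1.5-fold: Glud1, Pcx, Idh2, Suclg2 and Pdp1. Over all 12245 genes tested 4768 were. The members' median log2 fold change was 0.0053, against -0.01 over all genes tested, and their median absolute change was 0.29, against 0.48. The 2 groups did not overlap in 23 members, and 59.7% of all genes tested showed no overlap. When library totals were used without TMM factors, the median log2 fold change of all genes shifted by -0.14. With totals alone 35.1% of all calls were higher, against 45.7%, and 10 members were higher and 17 lower. Without quiescent replicate 2, 15 members were higher and 8 lower. When genes were split into 3 equal classes of GC content, the class with the lowest GC content, which held 16 members, had a median log2 fold change of 0.18, and the class with the highest, with 3 members, had -0.16. With each library's GC trend removed, Sucla2, Idh3g, Suclg1 and Mpc1 were no longer called and Mdh2 became called, with the values given beside each gene. The count of 13 lower members was also fragile, since it was 6 to 8 when any 1 quiescent library was left out and 8 with RLE size factors. The authors' deposited table called 17 of the 33 members in this comparison, all called here in the same direction.

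In the Yme1l KO, compared with fewer libraries per group, the malic enzyme gene Me2 and Pcx fell the most and Glul rose the most. Of the 12625 genes tested 51.6% were called, 25.4% higher and 26.2% lower in the KO. Of the 33 members 11 were called, 2 higher (Glul and Idh3g) and 9 lower, and only Me2 and Pcx changed by at least 1.5-fold. Over all 12625 genes tested 2248 were called with a change of that size. The members' share of lower calls was close to that of all genes, and their share of higher calls was below it. Their median log2 fold change was -0.02, against 0.0023 over all genes tested, and their median absolute change was 0.12, against 0.27. The 3 KO libraries lay apart from the 3 controls in 14 members, while 61.4% of all genes tested did so. Without KO replicate 3 the count of called members was again 11. The authors' deposited table called 8 members, each called here in the same direction.

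**Figure D1:**
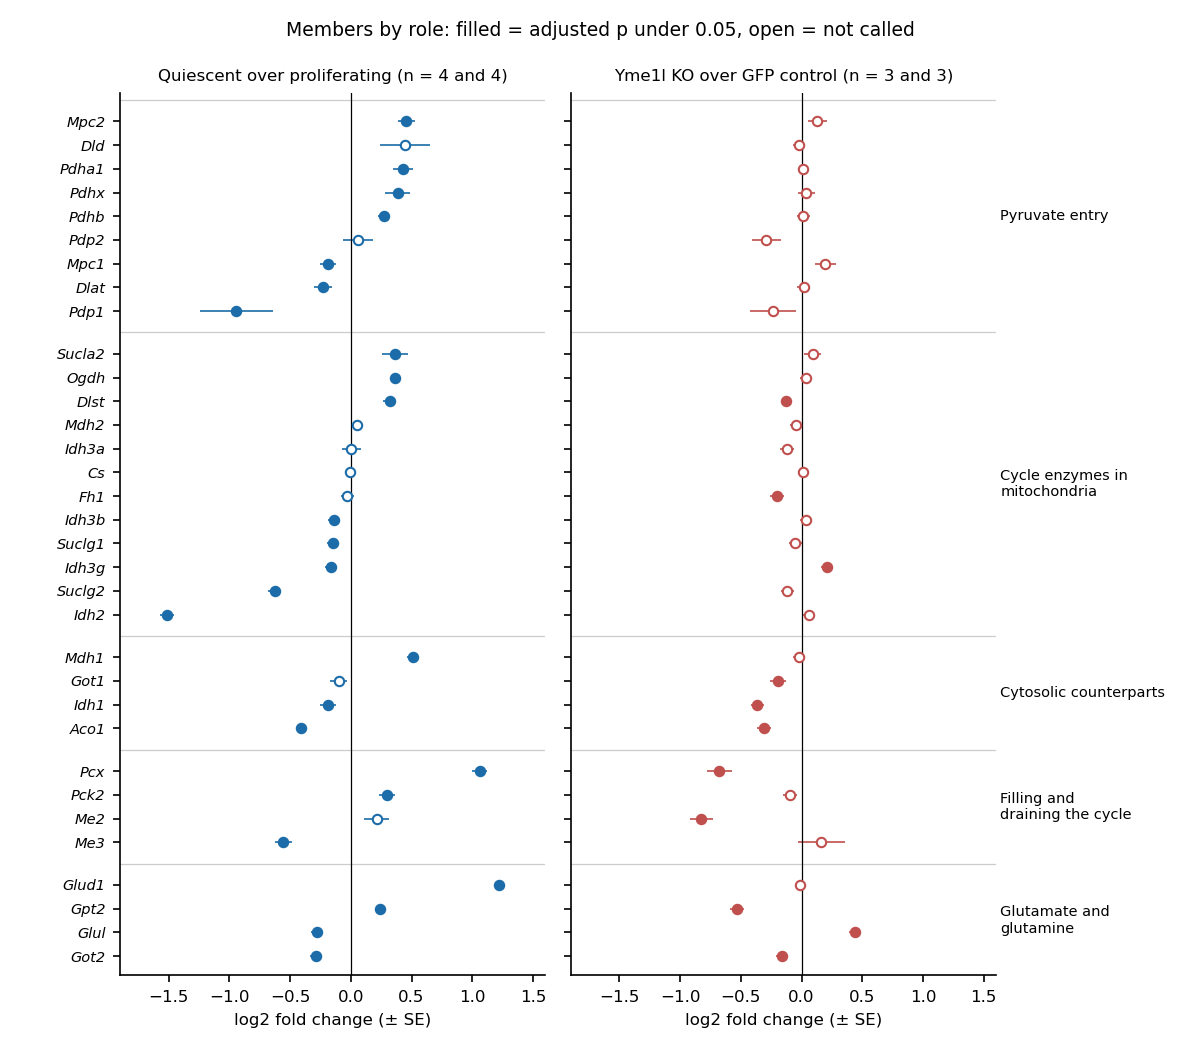
Log2 fold change (x axis, bars ± SE) of the 33 members (y axis) in quiescent over proliferating cells (left, n = 4 and 4) and in the Yme1l KO over the GFP control (right, n = 3 and 3), grouped by role. Filled points passed an adjusted p under 0.05 and open points did not; in the left panel Glud1 and Pcx lie farthest right and Idh2 farthest left, and in the right panel Me2 and Pcx lie farthest left and Glul farthest right.

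The sequence just before the start of 5 of these genes is shown because they include the largest called changes of the quiescent comparison and 3 of the 5 members called in opposite directions in the 2 comparisons. RefSeq promoter windows (build GRCm38.p6) were matched by symbol for 30 of the 33 members, and the 250 bases before the start are printed 5′ to 3′ on the gene's strand. For Pcx, which has 2 windows in that table, the window used lies 14 bases from the start of the transcript Pcx-204. Capitals mark matches, on either strand, to 4 motifs. The GC box was searched as GGGCGG and the CCAAT box as the letters of its name. The E-box was searched as CACGTG. The core of BMP response elements was searched as GGCGCC. Another pair of motifs had no match in these 5 windows, the core of the cAMP response element, searched as TGACGT, and the half-site of estrogen-related receptors, searched as AAGGTCA. No motif overlapped another in these windows.
Glud1: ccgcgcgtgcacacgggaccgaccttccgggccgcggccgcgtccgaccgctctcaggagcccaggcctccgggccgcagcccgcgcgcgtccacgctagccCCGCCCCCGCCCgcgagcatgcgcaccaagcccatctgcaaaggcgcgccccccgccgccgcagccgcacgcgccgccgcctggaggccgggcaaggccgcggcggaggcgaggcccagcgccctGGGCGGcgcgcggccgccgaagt
Pcx: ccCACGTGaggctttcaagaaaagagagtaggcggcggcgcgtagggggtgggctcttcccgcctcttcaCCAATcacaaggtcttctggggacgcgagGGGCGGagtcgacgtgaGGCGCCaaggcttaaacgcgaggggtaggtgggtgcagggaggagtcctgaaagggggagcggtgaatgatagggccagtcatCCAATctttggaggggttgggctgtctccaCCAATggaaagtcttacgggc
Idh2: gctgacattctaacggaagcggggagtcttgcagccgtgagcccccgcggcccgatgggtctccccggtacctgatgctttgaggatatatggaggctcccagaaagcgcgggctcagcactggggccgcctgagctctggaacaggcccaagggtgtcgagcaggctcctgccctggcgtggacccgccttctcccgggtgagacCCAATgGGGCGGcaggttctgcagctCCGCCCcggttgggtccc
Gpt2: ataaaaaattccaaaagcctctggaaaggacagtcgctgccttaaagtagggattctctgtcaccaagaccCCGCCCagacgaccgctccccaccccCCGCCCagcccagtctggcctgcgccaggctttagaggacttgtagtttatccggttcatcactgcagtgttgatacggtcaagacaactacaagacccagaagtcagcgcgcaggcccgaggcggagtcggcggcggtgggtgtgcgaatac
Glul: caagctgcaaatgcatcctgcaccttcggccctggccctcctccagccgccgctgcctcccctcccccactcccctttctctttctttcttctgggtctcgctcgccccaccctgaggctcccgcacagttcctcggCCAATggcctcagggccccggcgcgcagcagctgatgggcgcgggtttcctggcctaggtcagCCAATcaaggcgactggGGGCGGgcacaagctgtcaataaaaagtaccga
The windows lie at chr14:34310477-34310726 (plus strand) for Glud1, chr19:4510222-4510471 (plus) for Pcx, chr7:80115351-80115600 (minus) for Idh2, chr8:85492326-85492575 (plus) for Gpt2 and chr1:153899679-153899928 (plus) for Glul. Over all 32851 promoter windows of this length, 32.7% held a GC box, 33.8% a CCAAT box, 6.02% an E-box, 9.59% the BMP element core, 6.47% the cAMP element core and 4.08% the receptor half-site. All 5 printed windows held a GC box, 3 times in Glud1, where 2 matches adjoin, and 2 times each in Idh2 and Gpt2. Of the 30 members with a window, 22 held a GC box and 17 a CCAAT box in at least 1 window. These are counts of genes, which can have several windows, so the shares of single windows above are not a background for them. The Pcx window held 3 CCAAT boxes, 1 E-box and 1 BMP element core, and the other members with that core were Dlst, Mdh1, Pdha1 and Suclg1. Of these 5 genes, Pcx, Dlst, Mdh1 and Pdha1 were higher and Suclg1 was lower in quiescent cells, the last by a call lost under 10 of 18 alternatives. Over all genes tested 29.9% were higher and 35.5% lower. Genes with and without the core were not compared, so a link of the core to these changes was not tested. The Glud1 window was 82% G and C, the highest of the 5 printed. These matches describe the letters only, and no binding was measured.

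Entry of pyruvate was the first step examined in quiescent cells. Of the 9 genes for the carrier, the dehydrogenase complex and its phosphatases, 4 were higher, 3 were lower and 2 were not called, with a median log2 fold change of 0.27. That was 77.8% called, against 65.4% of all genes. The 2 subunits of the mitochondrial pyruvate carrier moved apart. Mpc2 (ENSMUSG00000026568, chromosome 1, 165288206 to 165308783) stood at 37.96, 40.5, 36.6 and 37.6 CPM in the proliferating libraries and at 54.96, 53.8, 46.5 and 53.9 CPM in the quiescent libraries. All 4 quiescent libraries were higher (log2 fold change 0.46 ± 0.07 SE, edgeR adjusted p = 3.9e-05), although replicate 3 was nearest to the proliferating range, and the change was 0.28 with each library's GC trend removed. Its partner Mpc1 was 65.7 ± 4.53 CPM in proliferating and 57.7 ± 1.598 CPM in quiescent cells (SD, n = 4 and 4; log2 fold change -0.19 ± 0.06 SE, edgeR adjusted p = 0.0172), a small fall that was lost under 12 of 18 alternatives, among them leaving out quiescent replicate 2 (-0.09, adjusted p = 0.286) and removing the GC trend (-0.17, adjusted p = 0.055).

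Within the pyruvate dehydrogenase complex, the genes of both E1 subunits rose. Pdha1 (ENSMUSG00000031299, chromosome X, 158905205 to 158921409), the catalytic E1 alpha subunit whose serines the kinases target, was at 90.8, 105, 98.1 and 105 CPM in proliferating libraries and at 118, 157, 137 and 123 CPM in quiescent libraries. The groups did not overlap (log2 fold change 0.43 ± 0.08 SE, edgeR adjusted p = 0.000721), and quiescent replicate 2 was the highest of the 8. Pdhb, the E1 beta subunit, went from 103 ± 3.04 to 125 ± 1.75 CPM (log2 fold change 0.27 ± 0.05 SE, edgeR adjusted p = 9.9e-05). Pdhx, which binds E3 to the core, went from 45.03 ± 6.92 to 58.6 ± 4.64 CPM (log2 fold change 0.38 ± 0.10 SE, edgeR adjusted p = 0.00493), and this call was lost under limma on log2(TPM + 1) (adjusted p = 0.117) and under library size alone (adjusted p = 0.0634). Dlat, the E2 core acetyltransferase, was 57.1 ± 4.79 CPM in proliferating and 48.7 ± 1.80 CPM in quiescent cells (log2 fold change -0.23 ± 0.07 SE, edgeR adjusted p = 0.0101), a call lost without any 1 of the 4 quiescent libraries (without replicate 2, -0.16, adjusted p = 0.0786). Dld, the E3 subunit shared with the 2-oxoglutarate complex, was not called at 13.3 ± 1.53 and 17.9 ± 5.91 CPM (log2 fold change 0.45 ± 0.20 SE, edgeR adjusted p = 0.0747). Its quiescent libraries ran from 12.4 to 25.6 CPM, with replicate 2 the highest, and it was called higher under 6 of 18 alternatives, among them leaving out quiescent replicate 1 (adjusted p = 0.00195).

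The phosphatases that switch the complex on were scarce. Pdp1 had 3.80, 3.86, 1.95 and 3.56 CPM in proliferating and 1.78, 1.99, 1.79 and 1.26 CPM in quiescent libraries, so the groups overlapped through proliferating replicate 4. The fall was called (log2 fold change -0.94 ± 0.30 SE, edgeR adjusted p = 0.0119) and was lost without quiescent replicate 4 (adjusted p = 0.0567). Pdp2, at 15.3 ± 0.558 and 15.9 ± 2.38 CPM, was not called (adjusted p = 0.676).

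Of the 12 mitochondrial cycle enzymes 3 were higher, 5 lower and 4 not called in quiescent cells, or 66.7% called against 65.4% of all genes. The first enzyme, citrate synthase (Cs), had 803 ± 15.3 CPM in proliferating and 798 ± 22.3 CPM in quiescent cells (adjusted p = 0.822). Its quiescent value in replicate 2 (764 CPM) lay below the other quiescent libraries, and without that library Cs was slightly higher in quiescent cells (0.09, adjusted p = 0.0153). Under 1 other of the 18 alternatives Cs was called slightly lower instead (-0.15, adjusted p = 0.000503).

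Isocitrate is oxidised in mitochondria by an NAD-dependent enzyme of 3 kinds of subunit and by the NADP-dependent Idh2. Idh2 (ENSMUSG00000030541, chromosome 7, 79744594 to 79765140), a source of mitochondrial NADPH, had 278, 273, 264 and 270.3 CPM in proliferating libraries and 103, 87.7, 102 and 87.8 CPM in quiescent libraries. Every quiescent library was far below every proliferating library (log2 fold change -1.51 ± 0.06 SE, edgeR adjusted p = 2.39e-12), and the call stood under all 18 alternatives. For the NAD-dependent enzyme, Idh3a, the catalytic subunit, was 61.9 ± 5.08 and 62 ± 4.70 CPM (adjusted p = 0.953). The regulatory subunits Idh3b (-0.14, SE 0.05, adjusted p = 0.0218) and Idh3g (-0.16, SE 0.05, adjusted p = 0.00839) were called slightly lower on the log2 scale. Both of these calls were lost under RLE size factors, under DESeq2 and without any 1 quiescent library. Without quiescent replicate 2 they were -0.06 (adjusted p = 0.283) for Idh3b and -0.05 (adjusted p = 0.375) for Idh3g, and with the GC trend removed Idh3g was -0.07 (adjusted p = 0.14).

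The 2-oxoglutarate dehydrogenase complex, which makes succinyl-CoA, rose in its own subunits. Ogdh, the E1 subunit, had 278, 279.5, 269 and 279 CPM in proliferating libraries and 365, 343, 353 and 359 CPM in quiescent libraries, with every quiescent library higher (log2 fold change 0.36 ± 0.04 SE, edgeR adjusted p = 7.7e-07). Dlst, the E2 subunit, had 285, 287, 267 and 292 CPM and 368, 318, 357 and 369.7 CPM in the same groups. Again the groups did not overlap (log2 fold change 0.32 ± 0.05 SE, edgeR adjusted p = 5.04e-05), and quiescent replicate 2 lay nearest to the proliferating range. With library size alone both rises were smaller, at 0.22 for Ogdh and 0.18 for Dlst, and both were still called.

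Succinyl-CoA ligase joins a shared alpha subunit (Suclg1) with either an ATP-forming beta subunit (Sucla2) or a GTP-forming beta subunit (Suclg2). The beta subunits moved in opposite directions. Suclg2 (ENSMUSG00000061838, chromosome 6, 95449990 to 95695781) had 139, 135, 138 and 147 CPM in proliferating libraries and 81.9, 91.8, 96.7 and 91.4 CPM in quiescent libraries, without overlap (log2 fold change -0.63 ± 0.06 SE, edgeR adjusted p = 6.91e-08). Sucla2 had 19.5, 21.9, 21.5 and 16.99 CPM and 22.1, 28.3, 25.6 and 26.5 CPM, where the highest proliferating library was just below the lowest quiescent one (log2 fold change 0.36 ± 0.11 SE, edgeR adjusted p = 0.00805). The rise of Sucla2 was not called with the GC trend removed (0.19, adjusted p = 0.151) or with library size alone (0.23, adjusted p = 0.0907), whereas the fall of Suclg2 was called under all alternatives. Suclg1 went from 141 ± 7.35 to 128 ± 4.73 CPM (log2 fold change -0.15 ± 0.05 SE, edgeR adjusted p = 0.0223), a call lost under 10 of 18 alternatives, among them leaving out quiescent replicate 2 (-0.04, adjusted p = 0.554) and removing the GC trend (-0.22, adjusted p = 0.0638). Fumarate hydratase (Fh1, 92.7 ± 4.99 and 90.9 ± 1.36 CPM) and mitochondrial malate dehydrogenase (Mdh2, 626 ± 14.5 and 647 ± 27.3 CPM) were not called. Mdh2 was called higher in quiescent cells without quiescent replicate 2 (0.16, adjusted p = 0.000585) or once the GC trend was taken out (0.15, adjusted p = 0.00127), and lower with library size alone (-0.09, adjusted p = 0.0224).

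The 4 cytosolic counterparts split, with 1 higher, 2 lower and 1 not called in quiescent cells, or 75% called against 65.4% of all genes. Mdh1, the cytosolic malate dehydrogenase of the malate-aspartate shuttle, had 258, 282, 249 and 275 CPM in proliferating libraries and 384, 370.3, 370.4 and 390.2 CPM in quiescent libraries. All quiescent values were higher, by 1.42-fold on average (log2 fold change 0.51 ± 0.05 SE, edgeR adjusted p = 8.54e-08). Aco1, the cytosolic aconitase that doubles as an iron-regulatory protein, had 212, 200.3, 199 and 209 CPM and 159.5, 152, 152 and 156 CPM, every quiescent library being lower (log2 fold change -0.41 ± 0.04 SE, edgeR adjusted p = 6.71e-07). Idh1, the cytosolic NADP-dependent isocitrate dehydrogenase, was 98.4 ± 5.69 and 86.2 ± 8.51 CPM with overlapping groups (log2 fold change -0.19 ± 0.07 SE, edgeR adjusted p = 0.0268), and that call was lost under 10 of 18 alternatives. Got1, the cytosolic aspartate transaminase, was not called (44.7 ± 2.37 and 41.7 ± 1.89 CPM, adjusted p = 0.211).

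Genes that fill or drain the cycle held the second-largest rise. Pcx (ENSMUSG00000024892, chromosome 19, 4560500 to 4671780) had 125, 126, 137 and 129 CPM in proliferating libraries and 301, 238, 272 and 268 CPM in quiescent libraries. The lowest quiescent library was above every proliferating library by a wide margin (log2 fold change 1.06 ± 0.06 SE, edgeR adjusted p = 6.12e-10), and the call stood under all alternatives. Pck2, the mitochondrial phosphoenolpyruvate carboxykinase, went from 89.8 ± 3.16 to 110.5 ± 11.7 CPM (log2 fold change 0.30 ± 0.07 SE, edgeR adjusted p = 0.00116). Of the mitochondrial malic enzymes, which turn malate into pyruvate, Me3 fell from 46.7, 51.2, 46.2 and 47.9 CPM to 32.5, 30.4, 33.4 and 34.6 CPM without overlap (log2 fold change -0.56 ± 0.07 SE, edgeR adjusted p = 4.45e-06). Most Me3 counts lay on transcripts not annotated as protein-coding, and the coding transcript Me3-202 held 15.4% ± 1.25 of all Me3 counts in proliferating and 19.7% ± 6.63 in quiescent libraries (SD, n = 4 and 4). The processed transcript Me3-201, not annotated as coding, held 47.5% ± 3.42 and 33.4% ± 4.29 in the same groups. The fall is thus one of the gene total, and a change of the coding transcript alone was not tested. Me2 was 22.1 ± 2.31 and 25.6 ± 2.20 CPM and was not called (adjusted p = 0.0794), though it was called higher under 6 of 18 alternatives, among them leaving out quiescent replicate 2 (0.28, adjusted p = 0.0271).

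All 4 genes of glutamate and glutamine exchange were called, 2 higher and 2 lower, where 65.4% of all genes tested were called. Glud1 (ENSMUSG00000021794, chromosome 14, 34032684 to 34067222), which interconverts glutamate and 2-oxoglutarate, had 368, 362, 338 and 371 CPM in proliferating libraries and 829, 862, 832 and 835 CPM in quiescent libraries. The 4 quiescent libraries were close to each other and all above the proliferating ones (log2 fold change 1.22 ± 0.04 SE, edgeR adjusted p = 4.53e-13). Gpt2, the mitochondrial alanine transaminase, had 533, 563, 533 and 572 CPM and 661, 633, 662 and 644 CPM, a smaller rise without overlap (log2 fold change 0.24 ± 0.04 SE, edgeR adjusted p = 7.06e-05). Glul, glutamine synthetase, had 869.6, 942, 908 and 972 CPM and 774, 703, 794 and 773 CPM, so that the quiescent libraries were all lower (log2 fold change -0.28 ± 0.05 SE, edgeR adjusted p = 8.33e-05). Got2, the mitochondrial aspartate transaminase, fell, from 383 ± 3.18 CPM to 314 ± 19.7 CPM (log2 fold change -0.29 ± 0.05 SE, edgeR adjusted p = 5.03e-05). Beside the fall of Glul, 4 of 6 tested astrocyte markers (of 7 listed) were higher in quiescent cells and 1, Aldh1l1, was lower. Their summed level was 4402 to 4844 CPM in quiescent and 3527 to 3646 CPM in proliferating libraries, with Gjb6 under 1 CPM, and the part of astrocyte-like expression in the change of Glul was not tested.

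**Figure D2:**
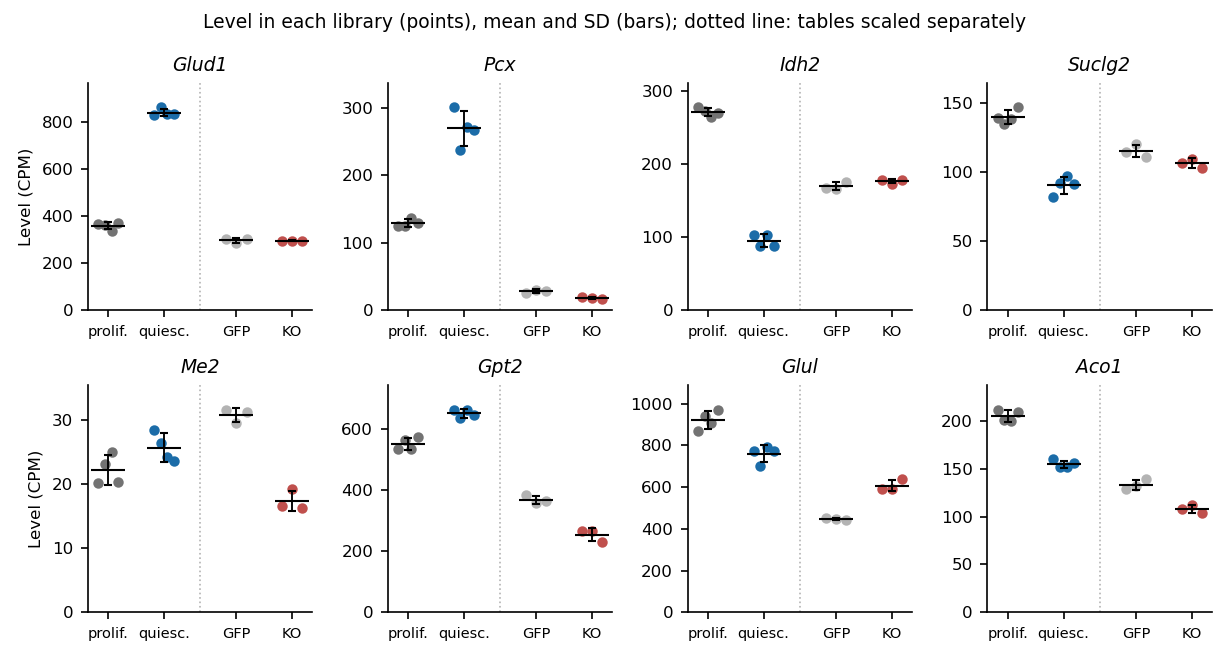
Level in each library (y axis, CPM from 0) of 8 members in proliferating and quiescent cells (n = 4 each) and, right of the dotted line, in GFP control and Yme1l KO cells (n = 3 each). Points are libraries and bars give mean and SD; the tables were scaled separately, so levels compare only within a side of the line, and Pcx lies higher in quiescent than proliferating cells and lower in KO than control cells.

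In the Yme1l KO, none of the 9 pyruvate entry genes was called, against 51.6% of all genes. Their log2 fold changes ran from -0.29 (Pdp2, adjusted p = 0.0607) to 0.20 (Mpc1, adjusted p = 0.072). Pdha1 was 299.7 ± 7.24 CPM in the control and 303 ± 9.76 CPM in the KO (SD, n = 3 and 3), and Pdhb, Dlat, Pdhx and Dld each differed by at most 0.04 on the log2 scale. Mpc1 was called higher under 4 of 16 alternatives, among them leaving out KO replicate 1 (0.26, adjusted p = 0.0311) or control replicate 1 (0.26, adjusted p = 0.0438).

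Of the 12 mitochondrial cycle enzymes 1 was higher, 2 lower and 9 not called in the KO, or 25% called against 51.6% of all genes. Idh3g had 143, 136 and 139.7 CPM in control libraries and 155, 159 and 169.8 CPM in KO libraries, every KO library being higher (log2 fold change 0.21 ± 0.05 SE, edgeR adjusted p = 0.00384). Fh1 had 119, 112 and 122 CPM and 102, 108 and 96.97 CPM, every KO library being lower (log2 fold change -0.20 ± 0.06 SE, edgeR adjusted p = 0.00923), and the call was lost without control replicate 3 (adjusted p = 0.0559). Dlst went from 212 ± 0.635 to 194 ± 3.82 CPM (log2 fold change -0.13 ± 0.05 SE, edgeR adjusted p = 0.03), a fall whose call was lost under 9 of 16 alternatives, among them leaving out KO replicate 1 or any 1 control library (adjusted p = 0.075 to 0.0995). Idh2, which fell the most under BMP4, was 169.6 ± 5.24 CPM in the control and 177 ± 3.10 CPM in the KO (adjusted p = 0.323).

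Of the 4 cytosolic counterparts 3 were lower in the KO, Idh1, Aco1 and Got1, or 75% called against 51.6% of all genes. Idh1 (ENSMUSG00000025950, chromosome 1, 65197775 to 65225659) had 142, 141 and 135 CPM in control libraries and 110.5, 113 and 102 CPM in KO libraries. The 3 KO libraries were all lower (log2 fold change -0.36 ± 0.05 SE, edgeR adjusted p = 7.47e-05). Aco1 had 129, 132 and 139 CPM and 108, 112 and 103 CPM, again with every KO library lower (log2 fold change -0.31 ± 0.05 SE, edgeR adjusted p = 0.000251). Got1 went from 67.9 ± 0.953 to 59.3 ± 3.33 CPM (log2 fold change -0.19 ± 0.06 SE, edgeR adjusted p = 0.018), and its call was lost under 4 of 16 alternatives, among them leaving out control replicate 1 (adjusted p = 0.0583), control replicate 2 (0.0546) or KO replicate 1 (0.0516). Mdh1, by contrast, was 272 ± 2.36 and 267 ± 2.603 CPM (adjusted p = 0.681).

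The 2 largest KO changes were among the genes that fill or drain the cycle. Me2 (ENSMUSG00000024556), the mitochondrial malic enzyme that uses mainly NAD, had 31.6, 29.5 and 31.2 CPM in control libraries and 16.6, 19.1 and 16.3 CPM in KO libraries. The groups were well apart (log2 fold change -0.83 ± 0.09 SE, edgeR adjusted p = 8.22e-06), a 1.77-fold lower level. Pcx had 25.1, 30.7 and 28.4 CPM in control libraries and 18.8, 17.96 and 15.8 CPM in KO libraries, a 1.598-fold lower level without overlap (log2 fold change -0.68 ± 0.10 SE, edgeR adjusted p = 9.4e-05). Pck2 (158 ± 10.9 and 147 ± 4.44 CPM, adjusted p = 0.163) and Me3 (4.03 ± 0.177 and 4.51 ± 0.609 CPM, adjusted p = 0.513) were not called.

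Among glutamate and glutamine genes, 1 rose, 2 fell and Glud1 was not called in the KO, or 75% called against 51.6% of all genes. Gpt2 (ENSMUSG00000031700, chromosome 8, 86219205 to 86254189) had 383, 356 and 363 CPM in control libraries and 264, 267 and 229.8 CPM in KO libraries, all lower than control and lowest in KO replicate 3 (log2 fold change -0.53 ± 0.06 SE, edgeR adjusted p = 7.27e-06). Glul (ENSMUSG00000026473, chromosome 1, 153775690 to 153785469) had 452, 448 and 444 CPM and 591, 591 and 639 CPM, all higher than control and highest in KO replicate 3 (log2 fold change 0.44 ± 0.05 SE, edgeR adjusted p = 6.76e-06). Without KO replicate 3 both calls stood. Got2 fell, from 208 ± 3.99 CPM to 185 ± 9.04 CPM (log2 fold change -0.16 ± 0.05 SE, edgeR adjusted p = 0.0133), which was not called without control replicate 1 (adjusted p = 0.0667). Glud1, the largest rise under BMP4, was 297 ± 9.09 and 294 ± 1.86 CPM (adjusted p = 0.87). Beside the rise of Glul, 4 of 5 tested astrocyte markers were higher in the KO and 1, Aldoc, was lower. The summed level of the 7 was 784 to 888 CPM in KO and 674 to 688 CPM in control libraries, with Aqp4 and Gjb6 under 1 CPM, and its part in the rise of Glul was not tested. The share of counts from mitochondrial DNA was 4.33 to 4.43% in KO and 3.54 to 3.87% in control libraries, and its part in these results was not tested either. In the first table that share was lower, at 0.362 to 0.594% in quiescent and 0.316 to 0.573% in proliferating libraries. The cause of this gap between the tables was not tested.

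Whether a gene responded differently to Yme1l loss and to BMP4 was tested as the difference of the 2 log2 fold changes, in a fit over all 14 libraries. Each effect has its own table and base group, and the base groups differed although both were in FGF and EGF. Pcx, for one, stood at 55.4 ± 2.32 TPM in proliferating and 12.7 ± 1.302 TPM in GFP control cells. A difference between treatments thus cannot be told apart from one between tables or starting levels. Over 13580 genes 38.9% differed, 21% with the KO effect higher and 18% with it lower. Of the 33 members 19 differed, 6 with the KO effect higher and 13 with it lower. The largest differences were those of Pcx (-1.79, SE 0.13, adjusted p = 9.41e-10), Idh2 (1.52, SE 0.09, adjusted p = 2.92e-11), Glud1 (-1.28, SE 0.07, adjusted p = 3.14e-12), Me2 (-1.09, SE 0.15, adjusted p = 5.85e-06) and Gpt2 (-0.82, SE 0.08, adjusted p = 1.07e-07). Glud1 and Idh2 moved under BMP4 and were not called in the KO, whereas Pcx and Gpt2 rose under BMP4 and fell in the KO. Glul (0.67, SE 0.08, adjusted p = 9.26e-07) and Idh3g (0.32, SE 0.08, adjusted p = 0.00396) did the reverse, with the BMP4 call of Idh3g the fragile one described above. Mdh1 (-0.58, SE 0.07, adjusted p = 1.94e-06), Dlst (-0.50, SE 0.08, adjusted p = 7.76e-05), Pdha1 (-0.46, SE 0.10, adjusted p = 0.00112) and Ogdh (-0.38, SE 0.07, adjusted p = 0.000193) had lower KO than BMP4 effects. For Aco1 (0.05, SE 0.08, adjusted p = 0.663) and Got2 (0.07, SE 0.08, adjusted p = 0.514), lower in both comparisons, no difference was called, which does not show that the effects are alike. The calls of Sucla2, Mpc1, Pdhx, Mpc2 and Pdhb were each lost under at least 1 alternative, that of Mpc2 with the GC trend removed (-0.17, adjusted p = 0.392). Without KO replicate 3 the differences of Pdhx (-0.36, adjusted p = 0.0616) and Mpc1 (0.26, adjusted p = 0.0801) were not called, and without quiescent replicate 2 that of Sucla2 (-0.28, adjusted p = 0.0847) was not. Without quiescent replicate 2 those of Fh1 (-0.23, adjusted p = 0.0409) and Mdh2 (-0.18, adjusted p = 0.0172) became called.

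**Figure D3:**
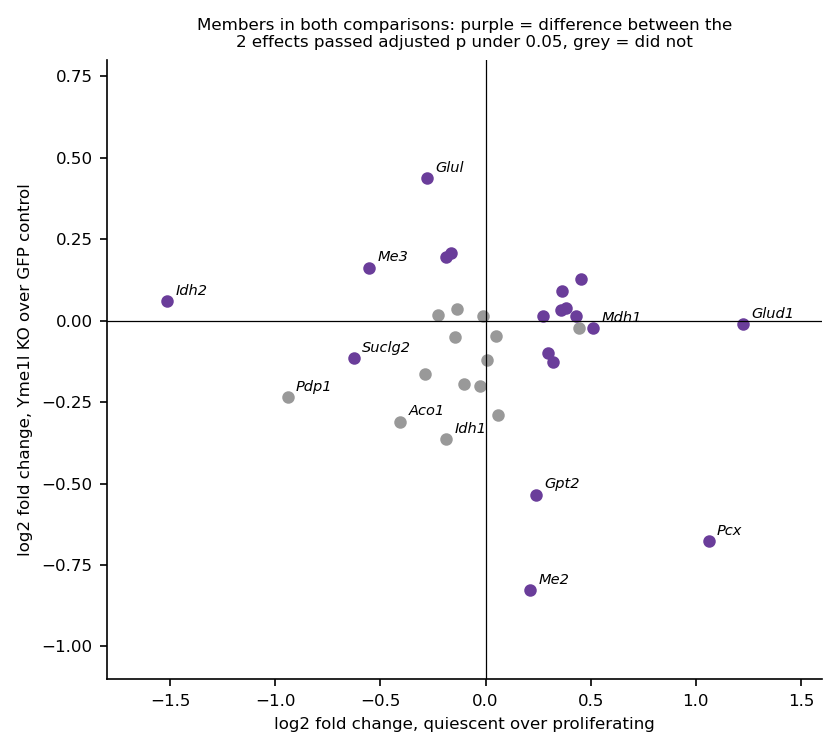
Log2 fold change of each member in quiescent over proliferating cells (x axis, n = 4 and 4) and in Yme1l KO over GFP control cells (y axis, n = 3 and 3), 1 point a gene. Purple points are the 19 members whose 2 effects differed at an adjusted p under 0.05; Pcx and Gpt2 lie right of and below 0, Glul left of and above 0, and Glud1 and Idh2 near 0 on the y axis.

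Related members were also compared within each library, as the share of 1 gene in the summed TPM (a level normalised for transcript length and library) of a pair, for 7 pairs. In quiescent against proliferating cells 6 of 7 pairs passed an exact permutation test (two-sided, n = 4 and 4, p = 0.0286, the smallest this design can give, adjusted p = 0.0333 over the 7 pairs). That p means only that the groups did not overlap, and 59.7% of all single genes tested showed no overlap in CPM. No such share was taken over other pairs of genes, so the count has no background of its own. Cytosolic Idh1 made up 21.2% ± 1.304 of the Idh1 and Idh2 total in proliferating and 41.0% ± 3.89 in quiescent libraries (SD, n = 4 and 4). The share of Sucla2 in the beta subunits of succinyl-CoA ligase went from 17.3% ± 2.11 to 30.8% ± 2.18, so the GTP-forming form stayed the more abundant mRNA. Mdh1 went from 28.4% ± 1.02 to 35.3% ± 0.238 of the malate dehydrogenases, and Mpc1 from 69.8% ± 2.28 to 59.6% ± 1.28 of the carrier. Me2 went from 20.6% ± 2.96 to 32.2% ± 2.26 of Me2 and Me3, and Pdp1 from 32.9% ± 6.28 to 20.5% ± 1.70 of the phosphatases. The Me3 level in its pair includes transcripts not annotated as protein-coding, which held most Me3 counts in every group. The Pdp1 share did not pass without any 1 quiescent library (exact permutation, adjusted p = 0.0571 to 0.0667). Only the Got1 share, 12.2% ± 0.673 and 13.4% ± 0.837, overlapped between the groups (exact permutation p = 0.0571, adjusted p = 0.0571).

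In the KO comparison no share could pass, because 3 against 3 libraries cannot give an exact two-sided p below 0.10. The groups did not overlap for 2 pairs, where 61.4% of all single genes tested showed no overlap in CPM. Idh1 held 37.8% ± 1.48 of its pair in control and 31.7% ± 1.83 in KO libraries (SD, n = 3 and 3), and Me2 held 86.7% ± 2.17 and 74.5% ± 2.72 of its pair (exact permutation p = 0.1 and adjusted p = 0.35 for both). The other 5 shares differed by 0.495 to 3.46 percentage points with overlapping groups. The tables were quantified and scaled separately, so shares set across them are a description only. The Sucla2 share was 54.0% ± 1.498 in the GFP control against 17.3% ± 2.11 in the proliferating group, although both were kept in FGF and EGF. As for Yme1l1, the levels of single members differed as well, with Dld at 129 ± 5.61 TPM in the control and 10.6 ± 1.56 TPM in the proliferating group, and Pcx at 12.7 ± 1.302 and 55.4 ± 2.32 TPM.

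**Figure D4:**
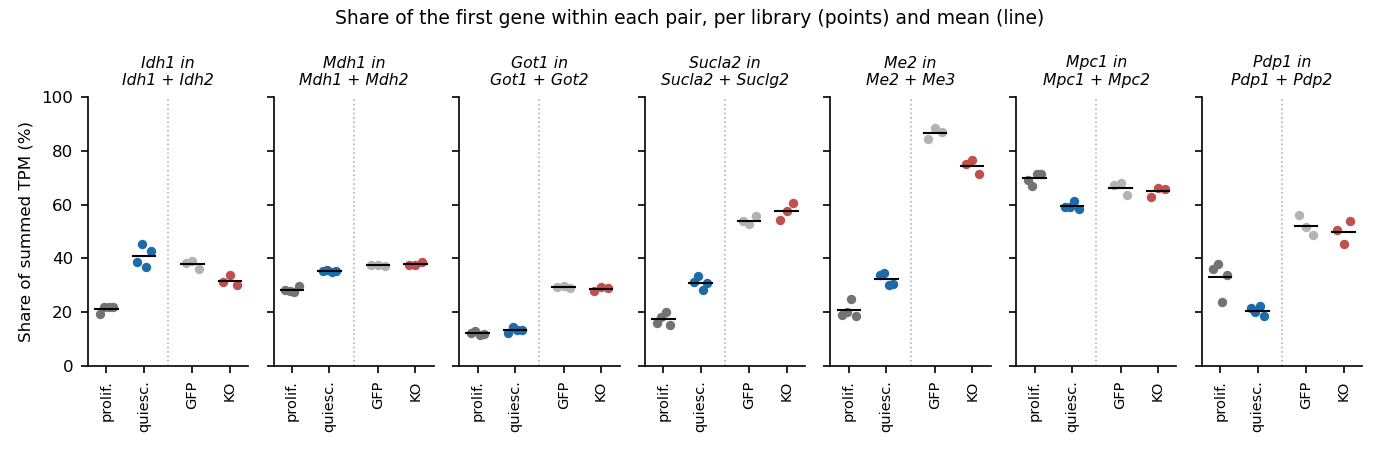
Share (y axis, percent of the pair's summed TPM) of the first-named gene within each of 7 pairs, in proliferating and quiescent libraries (n = 4 each) and, right of the dotted line, in GFP control and Yme1l KO libraries (n = 3 each). Points are libraries and lines are means; the Idh1 share lies at 19.2 to 22.0% in proliferating and 36.9 to 45.5% in quiescent libraries, and the Sucla2 share is higher in both groups of the second table than in the first.

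By length-normalised level, the most abundant member in proliferating cells was Mdh2 at 845 ± 22.2 TPM, followed by Glul (596 ± 23.7), Cs (485 ± 10.4) and Mdh1 (335 ± 19.8). In quiescent cells the order was Mdh2 (885 ± 20.1), Glud1 (568 ± 30.7), Glul (496 ± 21.1), Cs (486 ± 9.36) and Mdh1 (483 ± 8.62). Glul, Cs and Mdh1 were within about 1 SD of each other there and cannot be ordered. Glud1 rose from 253 ± 16.2 TPM in proliferating cells to that place. The scarcest were Pdp1 (2.31 ± 0.636 and 1.26 ± 0.25 TPM in proliferating and quiescent cells) and Pdp2 (4.60 ± 0.172 and 4.84 ± 0.792 TPM).

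Transcript counts showed which form of each gene carried these values. In 17 of the 33 members a single transcript held at least 90% of the gene's counts in every library. Pcx-204 held 98.4% ± 1.92 of Pcx counts in proliferating and 98.3% ± 0.435 in quiescent libraries, and Glud1-201 held 93.4% ± 0.779 and 94.4% ± 0.223 of Glud1 counts (SD, n = 4 and 4). The changes of Pcx and Glud1 were thus carried by their main coding transcript. The forms of Idh3a, whose total was not called in the KO (log2 fold change -0.12, SE 0.05), took different shares there. Idh3a-205 held 57.55 to 62.05% of its counts in the 3 control libraries and 38.9 to 42.0% in the 3 KO libraries, while Idh3a-201 held 0 to 8.04% and 19.98 to 26.55%. These shares did not overlap, were noticed after the values were seen and were not tested. In the first table Idh3a-201 ran from 0 to 37.1% in proliferating libraries alone, so the split between these 2 forms varied widely among replicates there. For Mdh1 the matched transcripts held 8.61 to 9.15% of the counts in the group means, so its forms are not described.

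Other genes of the same pathways were read from a list of 63. In quiescent cells 59 were tested, with 21 higher and 17 lower, or 64.4% called against 65.4% of all genes. In the KO 56 were tested, with 17 higher and 15 lower, or 57.1% called against 51.6% of all genes. Among the remaining cycle enzymes and assembly factors, 2 of 11 were higher and 3 lower in quiescent cells. Sdhb (-0.26, SE 0.05) and the assembly factor Sdhaf1 (-0.43, SE 0.09) of succinate dehydrogenase were lower. In the KO 3 of 10 were higher and 1 lower, led by Ogdhl, a paralog of Ogdh, which went from 74.4 ± 4.70 to 139 ± 20.1 CPM (log2 fold change 0.90 ± 0.10 SE, edgeR adjusted p = 4.13e-05).

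Of 10 tested genes that control pyruvate use, 6 were higher and 2 lower in quiescent cells, or 80% called against 65.4% of all genes. Of the 4 kinases that switch off pyruvate dehydrogenase Pdk3 was not called and the others were higher, with Pdk4 from 2.08 ± 0.591 to 9.04 ± 0.843 CPM (log2 fold change 2.11 ± 0.23 SE, edgeR adjusted p = 6.98e-07), Pdk2 from 83.5 ± 3.81 to 157 ± 8.01 CPM (log2 fold change 0.91 ± 0.05 SE, edgeR adjusted p = 4.77e-10) and Pdk1 at 0.74 (SE 0.17) on the log2 scale. The lactate and pyruvate transporter Slc16a1 rose as well (log2 fold change 1.22 ± 0.06 SE, edgeR adjusted p = 9.61e-11). In the KO 6 of 10 were higher and 1 lower, or 70% called against 51.6% of all genes, with Pdk2 (log2 fold change 0.95 ± 0.13 SE, edgeR adjusted p = 0.000212) and Pdk1 (log2 fold change 0.84 ± 0.12 SE, edgeR adjusted p = 6.25e-05) again higher, while no subunit of the complex they act on was called. Ldhb, a lactate dehydrogenase subunit, went from 208 ± 9.70 to 357 ± 35.4 CPM (log2 fold change 0.78 ± 0.07 SE, edgeR adjusted p = 1.74e-06), and the glycolytic enzyme Pkm rose by 0.61 on the log2 scale (SE 0.06). Cytosolic Pck1 was at 0 in all libraries.

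Of 21 genes of glutamine, glutamate and proline metabolism, 6 were higher and 9 lower in quiescent cells, or 71.4% called against 65.4% of all genes. The glutamine importer Slc1a5 was lower in quiescent than in proliferating cells (log2 fold change -1.91 ± 0.11 SE, edgeR adjusted p = 4.68e-10), while another glutamine carrier, Slc38a3, rose from 171 ± 10.1 to 640.1 ± 32.5 CPM (log2 fold change 1.90 ± 0.05 SE, edgeR adjusted p = 3.88e-14). The glutamate transporter Slc1a2, also an astrocyte marker, rose (log2 fold change 1.66 ± 0.26 SE, edgeR adjusted p = 0.00133), and Aldh18a1, which starts proline synthesis from glutamate, fell (log2 fold change -1.18 ± 0.05 SE, edgeR adjusted p = 1.72e-11). In the KO 7 of 20 were higher and 9 lower, or 80% called against 51.6% of all genes. Slc1a5 (log2 fold change -1.31 ± 0.20 SE, edgeR adjusted p = 0.000622) and the asparagine synthetase gene Asns (log2 fold change -0.99 ± 0.13 SE, edgeR adjusted p = 0.000885) were lower, and Gad1, which makes GABA from glutamate (log2 fold change 1.18 ± 0.10 SE, edgeR adjusted p = 9.69e-07), and Slc1a2 (log2 fold change 0.87 ± 0.09 SE, edgeR adjusted p = 2.34e-05) were higher.

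Mitochondrial carriers of these metabolites were higher in 4 and lower in 2 of 7 cases in quiescent cells, and higher in 1 and lower in 1 in the KO. These were 85.7% and 28.6% called, against 65.4% and 51.6% of all genes. The dicarboxylate carrier Slc25a10 was lower in both (log2 fold change -0.81, SE 0.07, and -0.56, SE 0.10). The aspartate and glutamate carrier Slc25a12 was higher in both (0.56, SE 0.07, and 0.14, SE 0.05). Acly, which splits exported citrate into acetyl-CoA for lipid synthesis, fell from 425 ± 18.3 to 269 ± 4.05 CPM in quiescent cells (log2 fold change -0.66 ± 0.04 SE, edgeR adjusted p = 1.17e-09) and from 408 ± 2.36 to 271 ± 25.4 CPM in the KO (log2 fold change -0.59 ± 0.06 SE, edgeR adjusted p = 4.01e-06). Acss2, which makes acetyl-CoA from acetate, rose in quiescent cells (0.75, SE 0.08) and fell in the KO (-0.23, SE 0.08). Of the 5 lipoate and thiamine cofactor genes, 2 were higher in quiescent cells and 1 was lower in the KO, and of the 2 hydroxyglutarate dehydrogenases neither was called in quiescent cells, nor was the 1 tested in the KO.

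**Figure D5:**
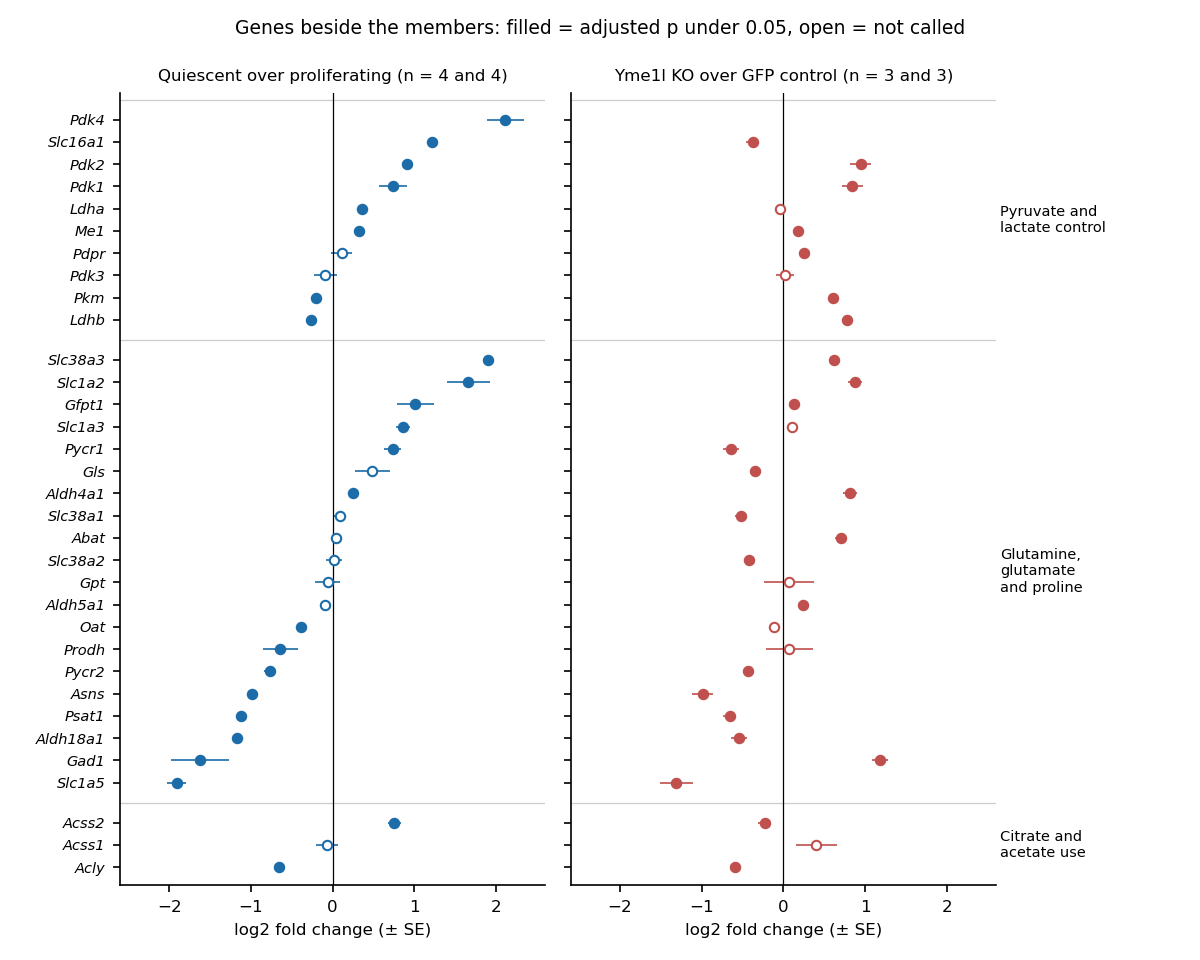
Log2 fold change (x axis, bars ± SE) of genes of pyruvate control, of glutamine, glutamate and proline metabolism and of citrate and acetate use (y axis) in quiescent over proliferating cells (left, n = 4 and 4) and Yme1l KO over GFP control cells (right, n = 3 and 3), for genes reaching a mean of 5 CPM in a group. Filled points passed an adjusted p under 0.05 and open points did not; Pdk4 was not tested in the KO, Pdk1 and Pdk2 lie right of 0 in both panels, and Slc1a5 and Acly lie left of 0 in both.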

How the data were processed

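Poly-A RNA was sequenced from stranded libraries, per the labels' protocols, and the submitters' processing notes name GRCm39, DESeq2 1.30.1 and R 4.0.3, with the role of each not given in the sources used here. The authors deposited estimated counts and length-normalised TPM per gene and transcript, separately for the 2 tables, and a table of their own comparisons with log2 fold changes and adjusted p-values. The names of the deposited files carry the tool name salmon, and its version is not given in the sources used here. Estimated counts were rounded and tested with edgeR 4.0.16 (quasi-likelihood test, TMM scaling, filterByExpr) in R 4.3.3. P-values were adjusted by Benjamini-Hochberg over all genes tested, with a threshold of 0.05. CPM values use TMM-adjusted totals. The SE of a log2 fold change is its size divided by the square root of its F statistic. Shares of a pair were taken from TPM and compared by exact two-sided permutation tests, adjusted over 7 pairs. limma 3.58.1 and DESeq2 1.42.0 served as alternatives, limma on log2(TPM + 1). Each library's GC trend was removed by lowess as an alternative added after the data were seen. On simulated counts in which 200 genes were changed, the test recovered 58% of 1.5-fold and 88% of 2-fold changes for the quiescent comparison (12245 genes simulated), and 80% and 88% for the KO comparison (12625 genes). Of the calls on these simulated counts 7.01% and 4.55% were unchanged genes, the first above the 5% that the threshold sets. In the data 65.4% and 51.6% of genes were called, far more than were changed in the simulation. The adjusted p depends on that share, so these rates may not carry over.

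The members and all gene lists were chosen with earlier results of these data known. All 33 members could be named. Full statistics were given for up to 10 called members per comparison with the largest change and for members completing a complex or pair. Of other pathway genes at most 4 per list and comparison were named, called with the largest change and a mean of at least 5 CPM. The result of 1 such gene is not reported here. Totals of 6475099 to 10320736 estimated counts set the precision, and no library was left out. Same-numbered replicates did not deviate together, so the numbers were not used as pairs.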

Additional observations from a re-analysis of the deposited data

Results flagged for a closer look

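Single libraries stood apart from the other libraries of their own group in 7 of 66 gene and group combinations tested (groups of 4), by a gap test that chance passes in about 1 of 20 groups. Cs was highest in proliferating replicate 5, at 826 CPM against 794.3 to 797.2 CPM in the others, and lowest in quiescent replicate 2, at 764.3 CPM against 806 to 811.2 CPM. Idh3a was lowest in proliferating replicate 4, at 54.36 CPM against 63.79 to 65.31 CPM, and highest in quiescent replicate 2, at 69.02 CPM against 59.16 to 60.28 CPM. In quiescent replicate 3 Mpc2 was lowest, at 46.54 CPM against 53.84 to 54.96 CPM. In proliferating replicate 4 Ogdh was lowest, at 268.9 CPM against 278.3 to 279.5 CPM, and so was Pdp1, at 1.953 CPM against 3.558 to 3.864 CPM. Proliferating replicate 4 and quiescent replicate 2 thus hold 5 of the 7, and quiescent replicate 2 is the library with the GC trend given above.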

How the results depend on the processing

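Of the 25 members called in quiescent cells 16 kept their call under all 18 alternatives, as did 7 of 11 in the KO under 16 alternatives and 14 of 19 differences between the effects under 23. These totals include length-scaled counts, which matched the counts tested after rounding in all but 23 of 429600 and 19 of 322200 values and so test nothing further. The 13 lower members became 8 with RLE size factors, 7 with DESeq2 and 6 with the replicate block, and 6 to 13 when 1 library was left out. When 1 library was left out, the members called numbered 20 to 25 in quiescent cells, 9 to 12 in the KO (6 to 10 of them lower) and 17 to 20 for the difference. Directions turned for Mdh2 with library size alone (-0.0918, adjusted p = 0.0224), for Cs without quiescent replicate 2 (0.0948, adjusted p = 0.0153, the highest of -0.0177 to 0.0948 when 1 library was left out) and for the difference of effects of Cs with library size alone (0.13, adjusted p = 0.0308); the cause was not tested. Same-numbered replicates correlated at -0.18, -0.33 and -0.01 in the first table and at 0.00, -0.06 and -0.01 in the second. For gene calls the replicate block was a set of replicate terms in the edgeR fit. For pair shares it was a sign-flip test over same-numbered libraries, whose smallest p is 0.25, so no share could pass it. At these depths the call of Pdp1, at under 4 CPM, rests on few reads.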
